A study of Homo sapiens with 9 samples.

Results

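DHX34 is an RNA helicase of the DEAH-box family, a group of enzymes that use ATP to remodel RNA and RNA-protein complexes. The seCLIP assay (single-end enhanced crosslinking and immunoprecipitation) crosslinks protein to RNA with ultraviolet light, pulls the protein down and sequences the RNA fragments that come with it, so that a stretch of the genome with more reads than the control is listed as a peak. The experiment used HEK293T cells, a human embryonic kidney cell line. The 5 libraries of the tagged group came from 1 clone, A5, in which DHX34 carries GFP and FLAG, and the 4 control libraries came from parental HEK293T cells without a tag. Both groups were UV-crosslinked and both carry the treatment label anti-GFP, but the control libraries are titled as inputs, so whether they are a pull-down or an input is not settled by the labels. The deposited result is 1 list of 2261 peaks for the tagged group against the controls, with no value for any single library. By read support the study later selected a smaller set, so the list holds peaks that the study did not keep.

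The peaks described here are those that touched an exon and crossed no splice boundary. A peak was kept when it lay wholly inside a protein-coding gene of GENCODE release 44, touched an exon of any transcript of that gene by 1 nt or more, and spanned no exon-intron boundary of any transcript of the gene. There were 256 such peaks, 11.3% of the 2261 in the list (95% Wilson interval 10.1 to 12.7%) and 13.4% of the 1915 inside protein-coding genes. The other peaks in protein-coding genes were 310 that crossed a boundary and 1349 that lay in introns alone. The list names neither a strand nor a read count, so each peak was read on the strand of its gene, the depth behind each peak is unknown, and every interval given covers counting error over peaks only. A gene on the opposite strand overlapped 26 of the 256 peaks (10.2%), where the origin of the RNA cannot be told apart.

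A mature mRNA is an untranslated leader (5′ UTR), a coding sequence that runs from the start codon to the stop codon, and an untranslated tail (3′ UTR), most of which lies in the last exon. Splicing removes introns, although the annotation also holds retained-intron transcripts, in which an intron is kept as exon sequence, and transcripts marked for nonsense-mediated decay, the pathway that degrades mRNAs with a stop codon in a premature position. DHX34 is known as a factor of that pathway. In the following, the chosen transcript is the MANE Select transcript, which a joint annotation effort picked as the representative of each gene and which existed for the host genes of all 256 peaks.

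The number in the fourth column of the list, a whole number whose meaning is not stated, was 1 in 250 of the 256 peaks and 2 in the other 6. To show what these 6 peaks look like, the first 30 bases of each are printed 5′ to 3′ on the strand of the gene (GRCh38), with runs of 5 or more purines (A or G) in capitals. They lay in CCAR1 (chr10:68765911-68765940, plus strand), TAGLN (chr11:117200648-117200677, plus strand), DHX34 itself (chr19:47379762-47379791, plus strand), TNRC18 (chr7:5376949-5376978 and chr7:5407482-5407511, minus strand) and NCAPG2 (chr7:158631532-158631561, minus strand).
CCAR1: GGAAAtagaacgccagcgtcGAGAAAGAAG
TAGLN: ggtgctgggtGGGAGtGGGGAtggtgtgtg
DHX34: tggtggccgatggctggctggagctgcagc
TNRC18 exon 8: ctctgcaccagggcatggcccctgcgttcc
TNRC18 intron 2: agcccagcttgatggatctttGGGAAtctg
NCAPG2: GAAAGGGtgggatttttttgtGGGAAtgtg

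The peaks with the longest unbroken purine runs are shown because G and A in long runs mark one end of the range that these exonic peaks covered. The run was 59 nt in CENPB, which binds centromeric DNA, 37 nt in AEBP2, a partner of the Polycomb repressive complex, 37 nt in RPGR, a protein of the photoreceptor cilium, 26 nt in SRRM1, a splicing coactivator, and 22 nt in RRBP1, a ribosome-binding protein of the endoplasmic reticulum. Up to 30 bases of each are given, with the purine run in capitals, from chr20:3785190-3785219 (CENPB, minus strand), chr12:19439808-19439837 (AEBP2, plus strand), chrX:38286665-38286694 (RPGR, minus strand), chr1:24671407-24671436 (SRRM1, plus strand) and chr20:17660307-17660336 (RRBP1, minus strand). A gene on the opposite strand overlapped the RPGR peak, so the strand on which its run was read is uncertain. The median longest run over all 256 peaks was 8 nt, and 20 of them held a run of 15 nt or more. Runs were not counted at eligible positions, and a wider peak has more room for a long run.
CENPB: GAGAGGAAGAGGAGGAGGAAGGGGAGGAGG
AEBP2: GAGGAGGAGGAGGAAGAGGAGGAGGAGGAA
RPGR: GAAAAGGAGGAAGGAGAGAGGAAAAAGGAG
SRRM1: GGAAAGAAAAAGAAGAAAAAGAAGGAcaag
RRBP1: GAGAAGAAAAAGAAGGAGAAAAcagtggag

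Which part of the annotated transcript held the peaks was the first question. Unspliced RNA holds both exon and intron sequence, so the list cannot tell spliced from unspliced RNA. Of the 256 peaks, 171 (66.8%) lay in an exon of the chosen transcript. The 3′ UTR alone held 84, the coding sequence alone 64 and the 5′ UTR alone 11, while 4 spanned the 5′ UTR and the coding sequence and 8 the coding sequence and the 3′ UTR. The other 85 touched no exon of the chosen transcript and count as exonic only through other transcripts of the gene. Of these, 77 lay in an intron of the chosen transcript and 8 outside its ends. Over all 256 peaks, 19 ran past the end of a transcript and were only partly exonic. Where the whole peak had to be exonic, 237 remained, 170 of them on the chosen transcript. By length, 33.4% of the 32143 nt under the peaks was coding sequence, 30.6% was 3′ UTR and 4.12% was 5′ UTR.

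These shares depend on how much of each kind of sequence the genes offer. Each was therefore set beside the eligible positions, meaning all places in that gene where a peak as wide would also meet the rule, of which there were between 301 and 43954 per peak (median 5508). The coding sequence was touched by 76 peaks (29.7%, interval 24.4 to 35.6%) and by 19.9% of eligible positions. The 3′ UTR was touched by 92 peaks (35.9%, 30.3 to 42%), beside 37.1% of eligible positions. For the 5′ UTR the values were 15 peaks (5.86%, 3.58 to 9.44%) and 3.94%. Over all 256 peaks the coding share was thus above that of the sequence on offer, whereas the interval of either UTR share included the value on offer. Over the 171 peaks on the chosen transcript alone, the 3′ UTR was touched by 53.8% (46.3 to 61.1%), beside 64.6% of eligible positions on that transcript, the coding sequence by 44.4% (37.2 to 51.9%), beside 34.7%, and the 5′ UTR by 8.77% (5.39 to 14%), beside 6.85%. With this denominator the 3′ UTR share was below the sequence on offer. No test was run on these shares, and eligible positions take no account of expression, of how well reads map, or of repeats from which reads had been removed.

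**Figure D1:**
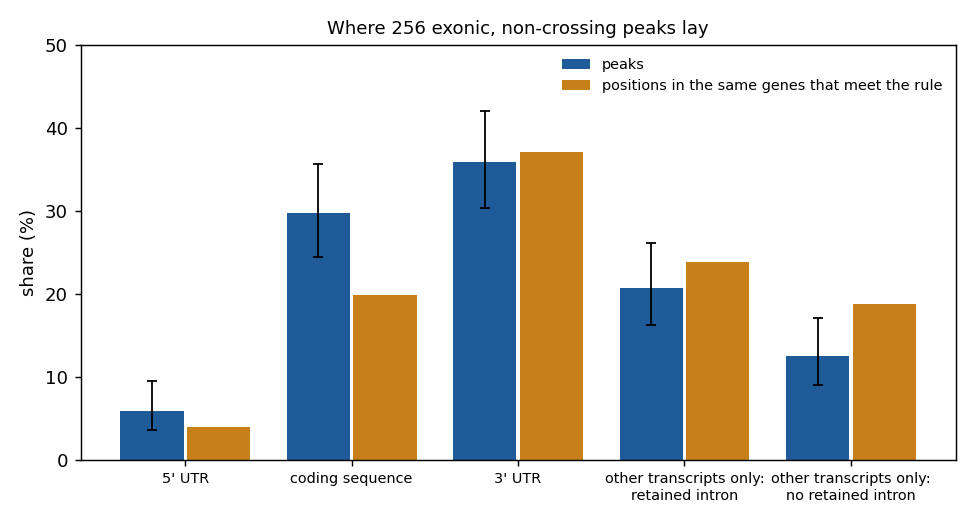
Share (%) of the 256 peaks that touched each part of the chosen transcript or, in the 2 pairs at the right, only exons of other transcripts (blue, bars with 95% Wilson intervals), beside the share of eligible positions in the same genes (orange). A peak that spans a pair of parts counts in both. Coding sequence held 29.7% of peaks and 19.9% of eligible positions, and the 3′ UTR 35.9% and 37.1%.

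The excess in coding sequence was carried by the wider peaks. The peaks ran from 100 to 561 nt with a median of 104 nt, and 184 of them (71.9%) were at most 110 nt wide, close to the smallest width. Among these 184 the coding share was 22.3% (16.9 to 28.8%), beside 19.1% of eligible positions. Among the 72 wider peaks it was 48.6% (37.4 to 59.9%), beside 22.1%. For the wider peaks the share that lay in an exon of a retained-intron transcript and in no exon of the chosen one was 15.3% (8.75 to 25.3%), beside 25.8%, and for the narrower peaks it was 22.8%, beside 23%.

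The 5 widest peaks were divided between exons and introns of the chosen transcript. The widest, 561 nt, lay in intron 1 of TAGLN, which encodes the actin-binding protein transgelin. Coding sequence of TAF7, a subunit of the general transcription factor TFIID, held 499 nt (chr5:141319080-141319578), and that of the forkhead transcription factor FOXC1 held 471 nt (chr6:1610947-1611417), both in genes whose chosen transcript is a single exon. In CCDC66 a peak of 484 nt lay in intron 15. Exon 3 of NCL, which encodes nucleolin, was filled almost from end to end: the peak of 470 nt (chr2:231461543-231462012) began 5 nt inside this exon of 478 nt and ended 3 nt before its end.

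Peaks inside inner exons had gaps of similar size on both sides. Of the 171 peaks in the chosen transcript, 40 lay wholly in an inner exon, 107 in the last exon, 16 in the first exon and 7 in transcripts with a single exon. The inner exons were 131 to 6578 nt long with a median of 248 nt, and since the rule needs an exon at least as wide as the peak, their length is not a finding. The median gap was 56.5 nt to the upstream end of the exon and 59.5 nt to the downstream end, and 19 of the 40 peaks sat nearer the upstream end. The peak ended within 10 nt of the 5′ splice site in 5 exons and started within 10 nt of the 3′ splice site in 5. In SPTBN1, which encodes a spectrin of the membrane skeleton, the peak (chr2:54642983-54643115) began on the first base of exon 19.

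The coding peaks lay along the whole coding sequence. The 64 peaks in coding sequence alone had their midpoints 55 to 6126 nt from the start codon (median 1170 nt) and 60 to 7909 nt before the stop codon (median 904 nt), in coding sequences with a median length of 2572 nt. The upstream 50% of the coding sequence held 33 of them. By exon, 40 of the 64 were in inner exons, 15 in last exons, 3 in first exons and 6 in single-exon transcripts. The highest distance from the start codon, 6126 nt, belonged to exon 38 of PRPF8, the protein at the centre of the spliceosome.

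**Figure D2:**
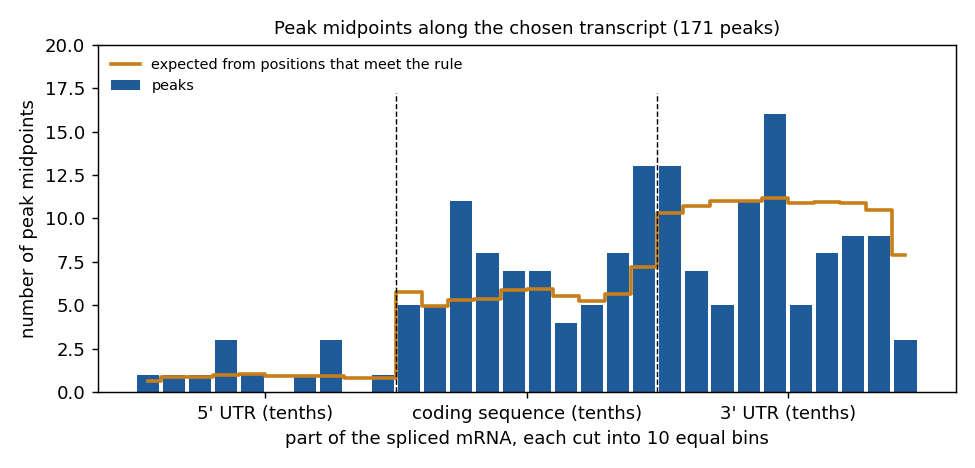
Number of peak midpoints (vertical axis) along the spliced chosen transcript of the 171 peaks in its exons, with the 5′ UTR, coding sequence and 3′ UTR each cut into 10 equal bins (horizontal axis). Bars are peaks, and the line is the number expected from eligible positions. Of the peaks in coding sequence alone 33 of 64 were in its upstream 50%, and of the peaks in 3′ UTR alone 50 of 84.

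The 84 peaks in 3′ UTR alone reached far from the stop codon. Their midpoints were 54 to 13039 nt downstream of it, with a median of 1096 nt, and 37 of the 84 were within 1000 nt. The 3′ UTRs were 150 to 17423 nt long (median 3070 nt), and 50 of the 84 midpoints (59.5%, 48.8 to 69.4%) fell in the upstream 50% of the UTR. In 3 of the 84 the chosen transcript had an intron in its 3′ UTR. These were ATP2A1, PKP1 and CPSF6, with 3′ UTRs of 324, 2948 and 4850 nt. Their last exons were 287, 2916 and 4847 nt long, so the intron lay close to the stop codon. The share of such transcripts over all genes was not counted. NCAPG2, a subunit of the condensin II complex that compacts chromosomes, held the peak of this class with a fourth-column value of 2 (chr7:158631429-158631561), with its midpoint 170 nt downstream of the stop codon.

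Next, the distance to the codons that begin and end translation was examined, since termination is the step at which nonsense-mediated decay is decided. The midpoint lay within 100 nt of the end of the stop codon in 20 of the 171 peaks (11.7%, 7.7 to 17.4%), 11 upstream and 9 downstream, whereas eligible positions gave an expected 11.4 peaks (6.66%). The ratio to eligible positions was not a planned result. It depended on the window: within 50 nt there were 6 peaks against an expected 5.83, and within 200 nt 26 against 20.8. It also depended on width. Among peaks of at most 110 nt, 8 lay within 100 nt against an expected 6.53, and the other 12 of the 20 were wider. For the start codon, 8 midpoints lay within 100 nt, against an expected 6.84.

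**Figure D3:**
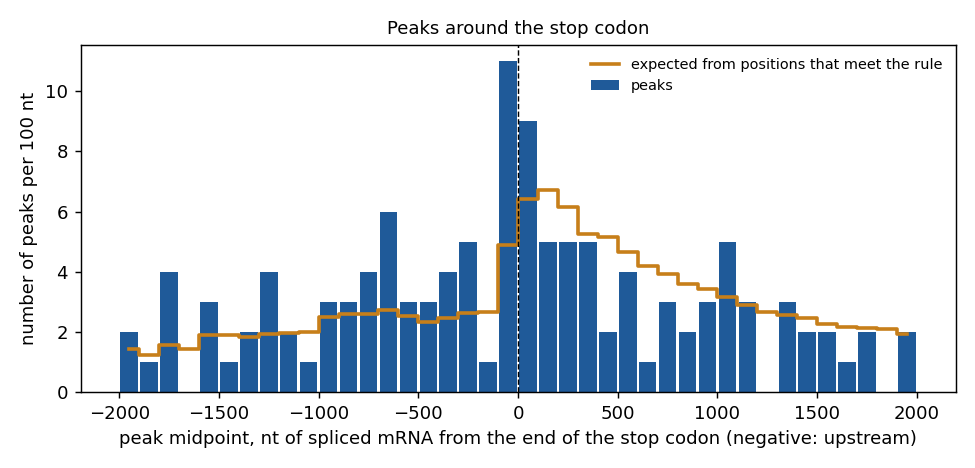
Number of peaks per 100 nt (vertical axis) by the distance of the midpoint from the end of the stop codon in nt of spliced mRNA, negative upstream (horizontal axis). Bars are peaks of the chosen transcript, and the line is the number expected from eligible positions. The bins on either side of the stop codon held 11 and 9 peaks.

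The stop codon itself was covered by 9 peaks (3.52%, 1.86 to 6.55%), beside 2.27% of eligible positions. They are shown with up to 30 bases around the stop codon, which is in capitals, on the strand of the gene (GRCh38): SARS1 (chr1:109237871-109237900, plus), ANP32E (chr1:150220679-150220708, minus), LAMC1 (chr1:183142773-183142802, plus), DDX21 (chr10:68982793-68982822, plus), GTF3A (chr13:27435568-27435597, plus), RPL3L (chr16:1944811-1944840, minus), FKBP10 (chr17:41822391-41822420, plus), MERTK (chr2:112028847-112028876, plus) and UPF3B (chrX:119834874-119834903, minus). All 3 stop codons occurred among them.
SARS1: gaggtcaccgatgctTGAacattcctgcct
ANP32E: gaggaagaagatgacTAGatcattctaaga
LAMC1: tccattgaaaagcccTAGtgtctttagggc
DDX21: gtaaagcatttggtcaaTAAttagaaatag
GTF3A: tcgacagttgcagtacttacccttggcTAA
RPL3L: gTAGgctgtgtggggtggatgaaccctgaa
FKBP10: gtccacgaggagctcTGAggggcagggagc
MERTK: tcagaagtcctgatgTGAggagaggtgcgg
UPF3B: atagaaaagaaggaggagaggagTGAtaag

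These 9 genes have no one function in common. SARS1 is the seryl-tRNA synthetase, ANP32E a chaperone of the histone H2A.Z, LAMC1 a chain of laminin, DDX21 a nucleolar helicase, GTF3A the transcription factor of the 5S ribosomal RNA genes, RPL3L a ribosomal protein of muscle, FKBP10 a prolyl isomerase of the endoplasmic reticulum and MERTK a receptor tyrosine kinase. UPF3B is a nonsense-mediated decay factor that binds the exon junction complex. Its peak of 151 nt (chrX:119834874-119835024) began 3 nt inside the last exon and put 147 nt on coding sequence and 4 nt on the 3′ UTR. The peak of DDX21, 211 nt wide, likewise lay mostly upstream of the stop codon, with 201 nt in coding sequence and 10 nt in the 3′ UTR, whereas that of RPL3L had 4 nt in coding sequence and 99 nt in the 3′ UTR.

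The start codon was covered by 4 peaks (1.56%), beside 1.35% of eligible positions. They lay in ARHGEF25, NOMO2, a membrane protein of the endoplasmic reticulum, TMEM132E, and NDUFAF4, an assembly factor of mitochondrial complex I. In NDUFAF4 the peak was centred on the start codon, with 52 nt in the 5′ UTR and 52 nt in coding sequence. NOMO2 has near-identical copies in the genome, so that the assignment of its reads is uncertain even after reads with several positions were removed.

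DHX34 itself was among the host genes. Its peak of 119 nt (chr19:47379762-47379880) lay in exon 14 of 17, starting 52 nt inside this exon of 276 nt and ending 105 nt before its end, with the midpoint 2817 nt from the start codon and 615 nt before the stop codon. The fourth-column value was 2. The list holds no level of DHX34, so neither the tag nor the pull-down can be checked from it.

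Of the other peaks with a value of 2, that of CCAR1, a regulator of the cell cycle and apoptosis, took up 161 nt of exon 17, which is 192 nt long, and was coding throughout. In TNRC18 a peak of 121 nt lay in coding exon 8, of 147 nt, and another of 282 nt in intron 2, 13548 nt downstream of its 5′ splice site, where the exon belongs to another protein-coding transcript. TNRC18 was 1 of 4 genes with 2 peaks, and the other 248 of the 252 host genes held 1. LAMC1 had a peak in exon 25 as well as that on the stop codon. BAHD1, which promotes heterochromatin, had 1 in coding exon 2 and 1 outside the chosen transcript. LRPPRC, which stabilises mitochondrial mRNAs, had 1 in intron 27 and 1 in intron 32, both in exons of retained-intron transcripts.

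The 85 peaks with no exon of the chosen transcript formed 33.2% of all, beside 42.5% of eligible positions. Of these 85, 49 were exonic in retained-intron transcripts alone, 15 in other protein-coding transcripts, 9 in transcripts of protein-coding genes without a defined coding sequence, 5 in nonsense-mediated decay transcripts and 7 in mixtures of these. Only 4 of the 85 touched the coding sequence of any other transcript. The share that rested on retained-intron transcripts alone was 19.1% (14.8 to 24.4%), beside 21.5% of eligible positions, and that on nonsense-mediated decay transcripts alone was 1.95% (0.837 to 4.49%), beside 1.88%. Neither share stood clear of the sequence on offer.

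The retained-intron group ran from cytoskeletal to cell surface genes. After TAGLN and CCDC66, its widest peaks were in RBX1, the RING subunit of cullin ubiquitin ligases (155 nt, intron 3), PLEKHA5 (129 nt, intron 16) and CD47, a cell surface protein that restrains phagocytosis (124 nt, intron 7). The 5 peaks exonic in nonsense-mediated decay transcripts alone lay in ABCA2, a lipid transporter, ANKRD18A, BAIAP2L2, RIPK1, a kinase of cell death signalling, and SERF2. Those of ABCA2 and BAIAP2L2 began 35 and 34 nt after a 5′ splice site of the chosen transcript. Counting peaks that also lay in other transcripts, 51 of the 256 (19.9%, 15.5 to 25.2%) touched an exon of a nonsense-mediated decay transcript, beside 16.4% of eligible positions, and 40 (15.6%) touched the 3′ UTR of one, beside 13.4%.

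Among the 77 peaks in introns of the chosen transcript, positions soon after the 5′ splice site were more frequent than on offer. The peak started within 200 nt after the 5′ splice site in 28 of the 77 (36.4%, 26.5 to 47.5%), where eligible positions gave an expected 15.5 (20.1%). At the other end, 9 peaks (11.7%, 6.27 to 20.7%) ended within 200 nt before the 3′ splice site, with 15 expected (19.5%). The 52 of these peaks that lay in exons of retained-intron transcripts had 17 (32.7%, 21.5 to 46.2%) after the 5′ splice site, with 10 expected. The comparison with splice sites was not a planned result and no test was run on it. It was not repeated by peak width or without peaks that overlap a gene on the opposite strand. The introns were 184 to 65046 nt long (median 3271 nt), and 19 of the 77 peaks lay in the first intron.

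In 7 of the 77 the peak began within 20 nt of the 5′ splice site, at a distance of 0 nt in MARK3 and ARMH3, 7 nt in TAF6, 8 nt in RHBDF2, 13 nt in ACADVL, 20 nt in GTF3C1 and 5 nt in COPS5. These genes were chosen after their values were seen, and no expected number was computed for the window of 20 nt. To show the splice sites next to which these peaks start, 30 bases across each except that of COPS5 are given. They are on the strand of the gene (GRCh38) with the first bases of the intron in capitals: MARK3 (chr14:103467182-103467211, plus), ARMH3 (chr10:102029618-102029647, minus), TAF6 (chr7:100113596-100113625, minus), RHBDF2 (chr17:76476810-76476839, minus), ACADVL (chr17:7222293-7222322, plus) and GTF3C1 (chr16:27463521-27463550, minus). MARK3 is a kinase of microtubule-associated proteins, TAF6 a TFIID subunit, ACADVL an enzyme of mitochondrial fatty acid oxidation and GTF3C1 a subunit of transcription factor IIIC.
MARK3: atcttcagagGTaagagtaatcagaaagag
ARMH3: gtgcatgaagGTgaggcataagctgcagat
TAF6: tgcctcaaagGTtgggggaggggagagcag
RHBDF2: acagccaccgGTgaggtgtcgccctggagc
ACADVL: gcattacccaGTgagtgaatttgggttggg
GTF3C1: cacgggaaagGTgggtgtggggttctggct

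The sequence at the upstream edge of the peaks was rich in guanine. It was read in a window taken from earlier work on these data, so the values are a description. At positions 6 to 15 from that edge the mean share of G was 37% (SD 19.8 over 256 peaks), beside 26.9% at eligible positions of the same kind. It was 33.2% beside 29.4% in the 76 peaks that touched coding sequence, 34.9% beside 23.8% in the 84 of the 3′ UTR alone, 49.1% beside 42% in the 11 of the 5′ UTR alone, and 40.8% beside 25.9% in the 85 off the chosen transcript. The difference from the sequence on offer was thus smaller in coding peaks than in those of the 3′ UTR or off the chosen transcript, and that difference between classes was not tested. At the same positions the boundary-crossing peaks had 36.1% and the intronic peaks 37.9%, and these differences from the exonic peaks were not tested. The spread between peaks was wide, with an SD of 18.2 to 23.9 in the 4 classes.

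Guanine fell with distance into the peak. Over all 256 peaks its share was 36.3% in the first 30 nt, 29.3% at positions 31 to 60 and 27% at positions 61 to 100. In the peaks of the 3′ UTR alone it went from 33.6% to 24.7% and 24.9%, and in the coding peaks from 33.1% to 30.9% and 28%. The edge of a peak lies near the ends of the reads behind it, and base preferences of crosslinking, RNase cleavage and ligation at those ends cannot be told apart from binding in this list. The mean GC content over whole peaks was 54.1% (SD 13.2), beside 51%.

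**Figure D4:**
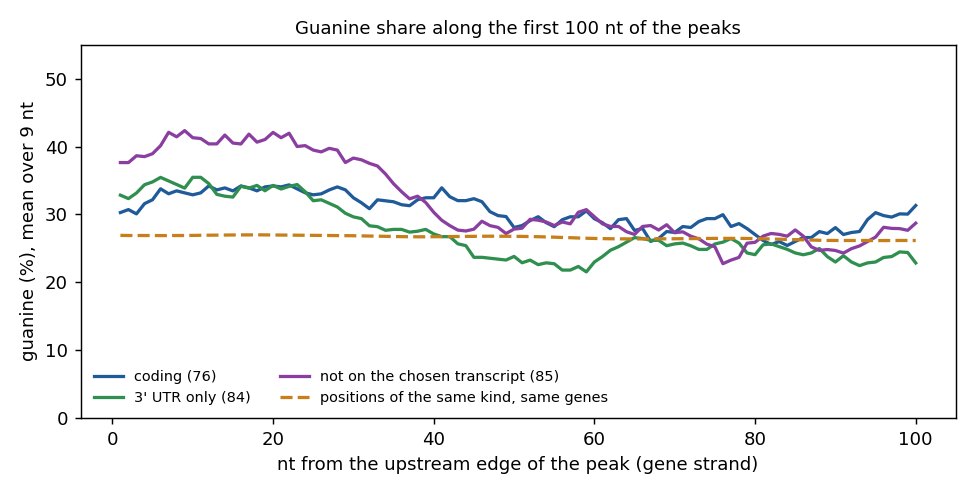
Share of guanine (%, running mean over 9 nt) by distance in nt from the upstream edge of the peak on the strand of its gene, for peaks that touched coding sequence (76), peaks in the 3′ UTR alone (84) and peaks off the chosen transcript (85), with eligible positions of the same kind for all peaks as the dashed line. In the first 30 nt the mean share was 33.1%, 33.6% and 40.3%.

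Hexamers of G and A were searched on the strand of the gene and counted once per peak. Shares of eligible positions were computed for that strand only. The counts on the opposite strand have no such value beside them, so they show no preference for a strand. The hexamer GGAGGG was in 40 peaks (15.6%), beside 7.6% of eligible positions, and in 24 peaks on the opposite strand. GGGGAG was in 38 peaks (14.8%), beside 8.71%, and in 18 on the opposite strand. GAGGAG was in 46 (18%), beside 12.1%, and in 26 on the opposite strand. The hexamers can overlap each other, and 84 of the 256 peaks held 1 or more of them, so that most of the peaks held none. A match is a description of the sequence and not a binding site.

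Under the coding peaks, codons for acidic residues were more frequent in total than in the rest of the same proteins. The 76 peaks covered 3524 whole codons, of which 11.7% encoded glutamate, beside 8.51% of the 75511 codons in the rest of those coding sequences. Aspartate and glutamate together made up 17.9%, beside 13.6%. Phenylalanine was at 1.82%, beside 3.17%. In CENPB 64.9% of the codons under the peak were acidic, in TRIM44 54.7% and in RPGR 47.1%. The RPGR peak is overlapped by a gene on the opposite strand, so its strand is uncertain. In the amyloid precursor APP the share was 37.1%, in FKBP10 36.7%, in AEBP2 31.5% and in NCL 28.8%. All of these genes were picked after their values were seen.

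The glutamate share varied between peaks. Of the 71 peaks with 20 codons or more, 38 had a higher share of glutamate than the rest of their protein. The next values cover these 71 peaks, unlike the 11.7% over all 76. Without the 3 peaks with the most glutamate codons, in AEBP2, CENPB and TRIM44, the share was 9.19%, beside 8.5% in the rest. Without NCL and TAF7 as well it was 8.54%, beside 8.45%. In the 37 such peaks of at most 110 nt it was 8.58%, beside 8.16%. Since peaks were left out for their glutamate codons, the share had to fall, and the values show only its size without them.

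**Figure D5:**
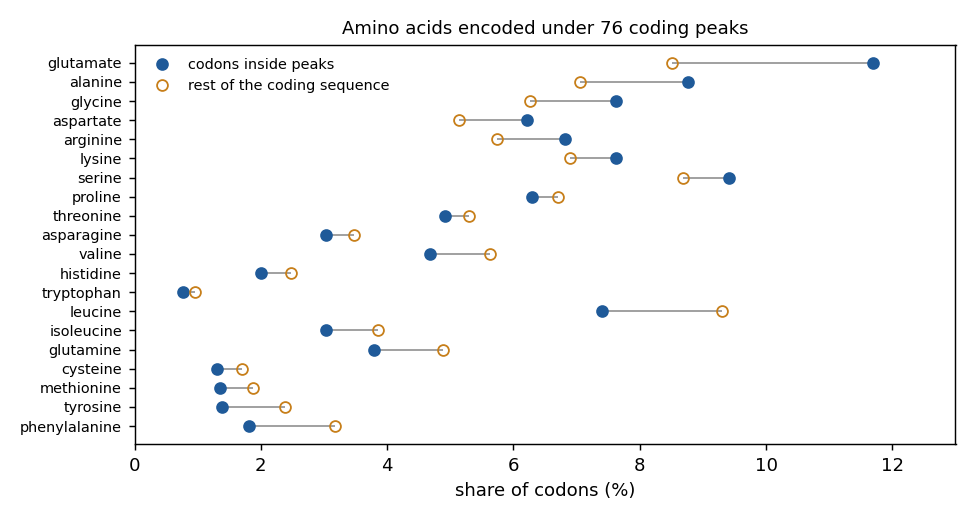
Share of codons (%) that encode each amino acid inside the 76 peaks that touched coding sequence (filled points) and in the rest of the coding sequence of the same transcripts (open points). Glutamate was at 11.7% and 8.51%, and phenylalanine at 1.82% and 3.17%. Among the 71 peaks with 20 codons or more, the share of glutamate was 8.54% without the 5 with the most glutamate codons.

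The host genes were compared with lists of gene families. Of 20020 protein-coding genes, 252 (1.26%) held an exonic peak that crossed no boundary. Among 30 genes of nonsense-mediated decay and the exon junction complex there were 2, DHX34 and UPF3B. Among 57 DEAD/DEAH-box helicases there were also 2, DDX21 and DHX34. The DHX34 peak lay in coding sequence alone, and that of DDX21 in coding sequence and the 3′ UTR. Splicing factors had 3 of 156 genes: PRPF8 and SRRM1 with peaks in coding exons, and HNRNPA2B1, which encodes a heterogeneous nuclear ribonucleoprotein, with 1 in intron 1. Of all protein-coding genes with any peak, 15.9% held one of this kind. The counts were 2 of 6 such genes on the decay list, 2 of 5 helicases and 3 of 22 splicing factors. These counts are small and no test was run, so no list can be set apart from the others.

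The peaks of the 3 hosts on the lists of cytosolic ribosomal proteins and translation factors lay off the chosen transcript. Cytosolic ribosomal proteins had 2 of 79 genes, RPL18 with a peak starting 59 nt after the 5′ splice site of intron 1 and RPLP2 with 1 starting 119 nt after that of intron 3, and translation factors had 1 of 55, EIF3E, a subunit of initiation factor eIF3, in intron 5. Chromatin remodellers and modifiers had 5 of 99 genes. On that list 34.3% of genes held a peak of any class, beside 7.94% of all protein-coding genes. Of its genes with any peak, 14.7% held one of this kind, beside 15.9% over all. In the remodeller ATRX, the ISWI partner BAZ1A and the corepressor NCOR1 the peak was in coding sequence, and in the histone methyltransferases KMT2C and NSD2 it was in an intron of the chosen transcript. Cytoskeletal proteins had 3 of 72, with SPTBN1 in coding sequence and the motor MYO5A and the tubulin TUBB3 in introns of the chosen transcript. Across these lists, then, the peaks fell both on exons of the chosen transcript and on sequence that is exon only in other transcripts.

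Finally, these peaks were compared with the other classes on what the rule had not used, in 3 tests with Benjamini-Hochberg adjustment. A fourth-column value of 2 or more was found in 6 of the 256 peaks (2.34%) and in 15 of the 310 boundary-crossing peaks (4.84%), with an odds ratio of 0.472 and an adjusted p of 0.268 by the two-sided Fisher's exact test. Against the intronic peaks, 23 of 1349 (1.7%), the odds ratio was 1.38 and the adjusted p 0.446. Neither difference passed the threshold, and with 6 such peaks the intervals were wide, from 1.08 to 5.02% for the exonic peaks.

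Host genes with several peaks were less frequent. The host gene held another peak of any class for 42 of the 256 peaks (16.4%, 12.4 to 21.4%) and for 111 of the 310 boundary-crossing peaks (35.8%, 30.7 to 41.3%), an odds ratio of 0.352 with an adjusted p of 6.83e-07 by the two-sided Fisher's exact test. The host genes had a median length of 48.8 kb and those of the boundary-crossing peaks 44.5 kb. Peaks of 1 gene are not independent of each other, which this test does not take into account. Peaks that share a gene counted as positive through each other, and the 310 boundary-crossing peaks lay in 270 genes. The test was not repeated with 1 peak per gene, so its p-value does not hold for genes. Of the 252 host genes, 7 also held a boundary-crossing peak and 28 an intronic peak.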

How the data were processed

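HEK293T cells were analysed by seCLIP, with 5 libraries of the tagged clone and 4 of untagged cells, grouped by their labels. Per the labels and the study's methods, the authors cut adapters (cutadapt), handled molecular identifiers (UMI-tools), aligned reads to GRCh38 (Bowtie, named as bowtie2 in the methods, with an earlier Ensembl annotation), kept unique positions, removed reads in transposable elements and found peaks with MACS2 on reads extended to a fixed length; other versions are not given in the sources used here. The deposited list was taken to be the union over replicates before the study's later selection by read support (not used here). That selection kept fewer peaks than the list has, so the list holds peaks the study did not keep. The list has 4 columns: positions and a whole-number score with no meaning given by the authors. It gives no depth.

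Peaks were classified against GENCODE release 44. Where several protein-coding genes held a peak (24 of 256), a gene that is no read-through was taken first, then the lowest identifier. Eligible positions were enumerated. Intervals are 95% Wilson intervals. Python 3.11.15, numpy 2.4.6, scipy 1.17.1, pysam 0.24.0, Biopython 1.88 and matplotlib 3.10.9 were used, and the classification was checked on toy genes with known answers. Bowtie does not split reads over introns, so reads across exon junctions are mostly lost near exon ends.

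Members, lists, tests and windows were chosen with earlier results of these data known. Named genes were hosts of peaks with a score of 2 or more, the 10 genes with the most members (ties by summed score, then symbol, which adds ABL2 and ABCA2 to the 8 described), hosts on the gene lists, the 5 widest peaks, those on a start or stop codon, DHX34, and up to 5 each of the retained-intron and nonsense-mediated decay groups. Others are named as chosen after their values were seen, also CENPB, RPGR and RRBP1. Alternatives were other transcript sets, widths, overlaps and gene choices.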

Additional observations from a re-analysis of the deposited data

How the results depend on the processing

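Which transcripts count as the gene decided how many peaks were exonic and where they lay. With GENCODE's basic transcripts there were 184 peaks, of which 94.6% were exonic in the chosen transcript, 41.8% touched coding sequence and 51.1% the 3′ UTR. With 1 transcript per gene there were 177, with 100%, 44.1% and 54.2%, and without retained-intron transcripts 207, with 82.6%, 36.7% and 44.4%. Among peaks of at most 110 nt the coding share was 22.3%. The comparison of score with intronic peaks, which passed no threshold, reversed to an odds ratio of 0 among peaks of at most 110 nt (0 of 184 and 7 of 1135, adjusted p 0.602, Fisher's exact test) and to 0.986 with 1 peak per gene and class (adjusted p 1). The ratio of midpoints near the stop codon to eligible positions was not a planned result in any window. It was 1.76 within 100 nt, 1.23 there among peaks of at most 110 nt, and 1.03 within 50 nt. The windows of 50 and 200 nt and the splits by width and opposite strand were chosen after seeing the data. The other 46 values under alternatives kept their direction and side of the threshold, or stayed within the interval or SD of the value reported, or, for counts, within 1.5 times of it, which the counts of 184, 177 and 207 peaks did. No paired analysis was possible because the list has no value per library, and for the same reason no replicate could be left out. With no read counts, weak and strong peaks cannot be told apart.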
